A study of Mus musculus with 6 samples.

Results

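Open chromatin at Foxo1, Tcf3 and Erg, genes of 3 transcription factors of the early B lineage, was described in ATAC-seq peak lists from mouse pro-B cell lines. The members were all peaks that overlapped fixed windows of the mouse build mm9: chromosome 3 from 52000000 to 52200000 for Foxo1, chromosome 10 from 79850000 to 79920000 for Tcf3, and chromosome 16 from 95550000 to 95850000 for Erg. Peaks of the 6 lists that overlapped by at least 1 bp were merged into regions. This gave 40 regions at Foxo1, 25 at Tcf3 and 64 at Erg, or 129 of the 149724 regions of the genome. The windows are wider than the genes, which span 81.8 kb (Foxo1), 24.4 kb (Tcf3) and 227 kb (Erg) in RefSeq's annotation of GRCm38.p6. Next to Foxo1 in that annotation lie Maml3 and Cog6, next to Tcf3 Uqcr11 and Onecut3, and next to Erg Kcnj15 and Ets2. No annotation of mm9 was used, so a region's place in an exon, an intron or a neighbouring gene is not given.

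ATAC-seq cuts open chromatin with the Tn5 transposase, and a peak marks a stretch that is cut more often than its surroundings. CBE_1 and CBE_2 are 2 lines with the genotype IGCR1-/-, and WT is 1 wild type line. IGCR1 is a CTCF-binding control region of the IgH locus, which lies on none of the 3 chromosomes studied here. All 3 lines are untreated RAG2-deficient pro-B cells of strain 129SV from bone marrow, so the controls lack RAG2 too. Each line has 2 libraries of 200000 cells and 11 PCR cycles. The labels do not say whether the duplicates were separate cultures, so their spread may be technical, and with 1 WT line the line and the genotype cannot be told apart. The lists held 72318 and 80242 peaks in CBE_1, 94665 and 97522 in CBE_2, and 112241 and 106056 in WT, and the read depth behind them is unknown.

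Foxo1 encodes a forkhead factor that is kept out of the nucleus by PI3K and AKT signalling and that activates genes such as Il7r and Rag1 in early B cells. Tcf3 encodes the E2A proteins E12 and E47, basic helix-loop-helix factors that bind E-boxes and act at the start of B cell commitment. Erg encodes an ETS family factor known for its role in blood stem cells and in early B cell development. E2A, FOXO1, EBF1 and PAX5 are known to act together as a network that sets and holds B cell identity.

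The sequences under the peaks are not printed, because no genome of the peaks' build was used. The RefSeq promoters of the 3 genes (GRCm38.p6, from 250 bases before to 50 after the transcript start, on the gene's strand, 5′ to 3′; all 3 genes matched by symbol) are shown as the regulatory sequences that name the loci. For Erg, 3 starts are listed and the first is shown. Capitals mark matches, on either strand, to the E-boxes CAGCTG and CACCTG, the forkhead core TAAACA, the ETS core CCGGAA and the CCAAT box.
Foxo1: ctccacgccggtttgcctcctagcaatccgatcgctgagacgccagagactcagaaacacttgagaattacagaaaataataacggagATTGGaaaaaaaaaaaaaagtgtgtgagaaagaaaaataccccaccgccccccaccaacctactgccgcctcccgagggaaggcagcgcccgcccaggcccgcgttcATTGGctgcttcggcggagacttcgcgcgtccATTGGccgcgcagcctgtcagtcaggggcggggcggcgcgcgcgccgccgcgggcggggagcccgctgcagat
Tcf3: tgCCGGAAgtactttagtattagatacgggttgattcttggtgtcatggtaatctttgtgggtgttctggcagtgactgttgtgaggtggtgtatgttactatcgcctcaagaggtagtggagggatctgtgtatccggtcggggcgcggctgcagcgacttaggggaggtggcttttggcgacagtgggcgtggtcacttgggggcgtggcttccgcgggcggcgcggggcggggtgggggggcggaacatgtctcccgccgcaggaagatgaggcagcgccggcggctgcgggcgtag
Erg: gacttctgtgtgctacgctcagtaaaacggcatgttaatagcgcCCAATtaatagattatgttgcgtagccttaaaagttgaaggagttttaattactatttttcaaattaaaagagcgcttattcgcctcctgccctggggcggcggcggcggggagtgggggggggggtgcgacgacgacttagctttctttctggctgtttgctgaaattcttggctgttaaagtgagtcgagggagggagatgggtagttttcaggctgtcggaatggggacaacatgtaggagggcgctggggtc
The Foxo1 promoter holds 31 CpG, the Tcf3 promoter 25 and the Erg promoter 16, against a median of 7 over 32851 promoters. Foxo1 holds 3 CCAAT matches and Erg 1, a motif found in 37.4% of all promoters. Tcf3 holds 1 ETS core, found in 14.9%. None of the 3 promoter sequences shown holds CAGCTG (in 16.3% of promoters), CACCTG (20.2%) or TAAACA (13.4%). The promoters were not placed on the mm9 peaks.

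The label was checked on 3 B lineage windows set from general knowledge of mm9, and in every list Ebf1, Pax5 and Cd79a each held a peak at the 90.1st percentile of its own list or higher. The window of the T lineage genes Cd3e, Cd3d and Cd3g held 1 to 3 peaks per list, the strongest at the 87.8th to 91.0th percentile, so a strong peak alone does not set the lineages apart.

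Every locus was open in every line. Peaks in all 6 libraries were found in 58 of the 129 regions: 16 of 40 at Foxo1, 13 of 25 at Tcf3 and 29 of 64 at Erg, or 45% in all against 31.9% of the genome's regions. Another 34 regions (26.4%, against 27.9% of the genome's regions) were found in 1 library, with folds over background of 2.31 to 3.23, at most the 31.5th percentile of their list. Presence that followed the genotype or a line was rare. No region was present in all 4 mutated libraries and absent from both WT libraries (1.52% of the genome's regions), and none was missing from CBE_1 alone (5.05%) or CBE_2 alone (0.653%). WT-only regions numbered 2 (8.68% of the genome's regions), CBE_1-only regions 1 (0.667%) and CBE_2-only regions 1 (3.14%). The other 33 regions were present in 2 to 5 libraries without such a pattern.

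**Figure D1:**
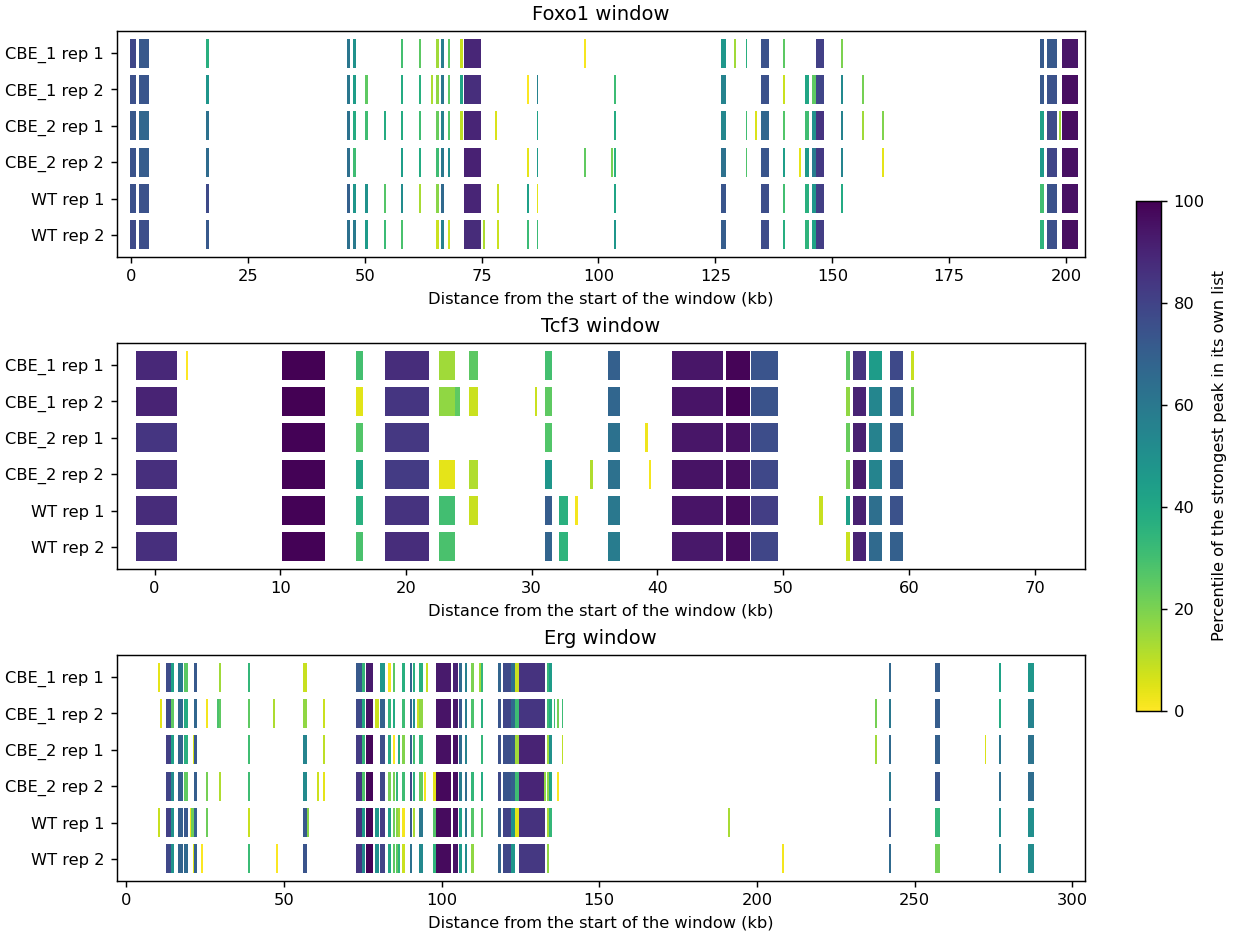
Regions under peaks along the Foxo1, Tcf3 and Erg windows, with distance from the window's start in kb on the x axis and a row for each library. Each bar spans the merged region, also where the library's own peaks cover less of it, and its colour gives the percentile of the library's strongest peak there within its own list. The darkest bars, near the top of the scale, run through all 6 rows, while bars found in 1 row are at the 31.5th percentile or lower.

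Peaks covered 20.8 and 24.8 kb of the Foxo1 window in CBE_1, 23.8 and 24.6 kb in CBE_2, and 23.0 and 21.9 kb in WT. At Erg they covered 37.1 and 43.0 kb in CBE_1, 40.6 and 40.8 kb in CBE_2, and 41.2 and 37.8 kb in WT. At both loci the mutated and WT libraries overlapped. At Tcf3 all 4 mutated libraries lay below both WT libraries, with 21.2 and 21.1 kb in CBE_1, 20.1 and 20.9 kb in CBE_2, and 23.0 and 21.4 kb in WT (exact two-sided permutation p = 0.133). Taken as a share of all bases under peaks of the list, the 4 mutated libraries exceeded the WT libraries at every locus. At Erg the share was 0.0706% and 0.0722% in CBE_1, 0.0589% and 0.0581% in CBE_2, and 0.0514% and 0.0501% in WT. At Foxo1 it was 0.0395% and 0.0416% in CBE_1, 0.0345% and 0.0350% in CBE_2, and 0.0287% and 0.0290% in WT. At Tcf3 it was 0.0403% and 0.0355% in CBE_1, 0.0291% and 0.0298% in CBE_2, and 0.0287% and 0.0284% in WT. Each of these gave an exact two-sided permutation p of 0.133, the smallest that 4 against 2 libraries allow, so this test cannot pass 0.05 here. The share moves with the length of the whole list, which was 52.6 and 59.6 Mb in CBE_1, 69.0 and 70.1 Mb in CBE_2, and 80.1 and 75.4 Mb in WT. With lists cut to the same number of peaks, the mutated minus WT difference in share was 0.00857 percentage points at Foxo1 and 0.0142 at Erg, where the mutated libraries still exceeded WT (exact permutation p = 0.133). At Tcf3 it was 0.00360 percentage points, and the libraries overlapped (exact permutation p = 0.4).

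**Figure D2:**
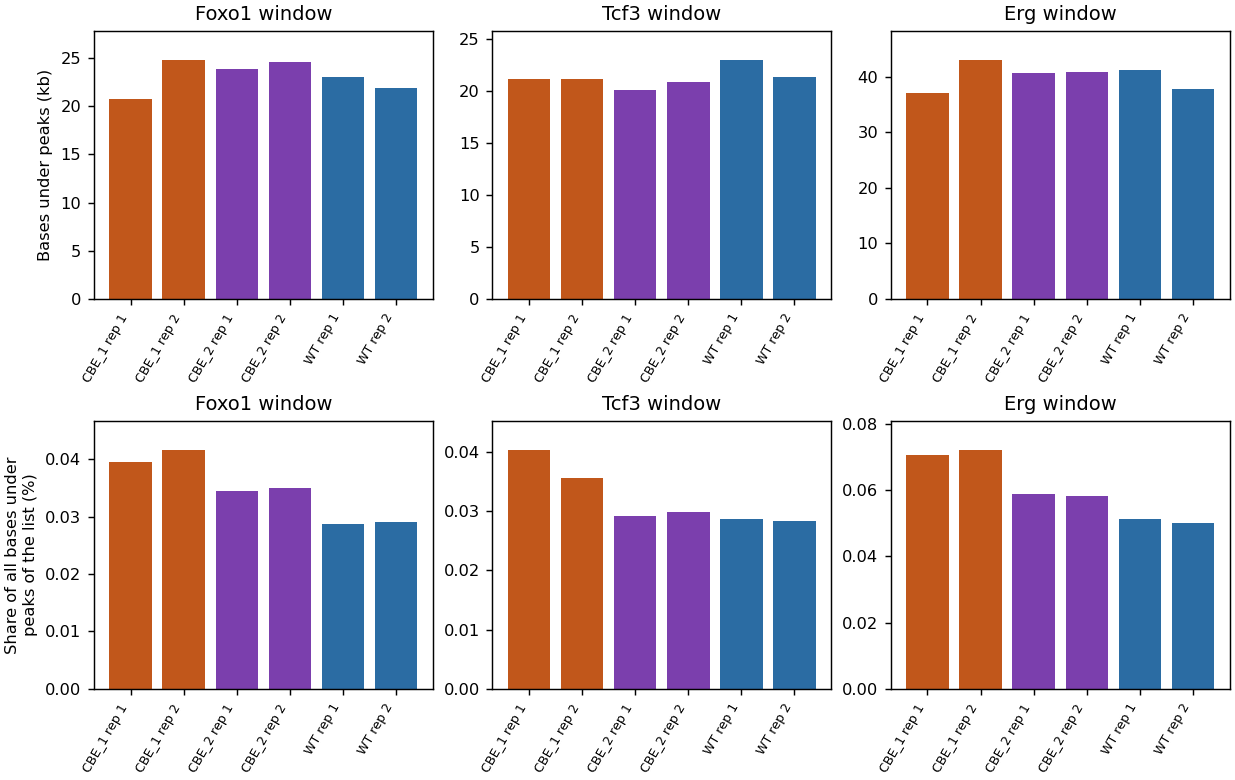
Bases under peaks in each window (top, kb) and the same bases as a share of all bases under peaks of the library's list (bottom, percent). Each bar is 1 library. At Erg the bases overlap between lines, at 37.1 to 43.0 kb, while the shares step down from CBE_1 through CBE_2 to WT.

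To compare lists of unlike length, the highest deposited fold of each region was turned into a percentile among the 47767 regions present in all 6 libraries, in each library separately. A region is called higher when all 4 mutated libraries lie above both WT libraries, and lower in the reverse case. Over the 3 loci 20 of 58 shared regions were higher (34.5%, against 20.3% of all shared regions) and 6 were lower (10.3%, against 20.1%). By locus, 5 of 16 were higher and 2 lower at Foxo1, 3 of 13 and 1 at Tcf3, and 12 of 29 and 3 at Erg. Regions above WT thus outnumbered those below it at each locus on this scale. The higher and lower shares were 31.2% and 12.5% at Foxo1, 23.1% and 7.69% at Tcf3, and 41.4% and 10.3% at Erg. At Tcf3 the higher share was close to the 20.3% of all shared regions, and 1 region made up the lower share. With each fold ranked within its whole list, 6 of the 58 were higher (10.3%, against 7.15% of all shared regions) and 15 lower (25.9%, against 40.5%). On both scales the higher share was above that of all shared regions, and the lower share below it. The 2 scales rank the same folds, so the second is no independent support. On it the higher share rests on 6 regions and lies near that of all shared regions. The median difference, mutated minus WT, was 3.10 points at Foxo1, 2.29 at Tcf3 and 5.05 at Erg, beside 0.199 over all shared regions. With CBE_1 alone against WT, 33 of 58 regions were higher (56.9%, against 36.9% of all shared regions) and 10 lower (17.2%, against 33.6%). With CBE_2 alone, 23 were higher (39.7%, against 33.2%) and 12 lower (20.7%, against 33.2%). The 2 comparisons share the WT libraries. CBE_1 was above CBE_2 in 27 regions (46.6%, against 34.1%) and below it in 10 (17.2%, against 31.5%). In bulk libraries, more open cells and more opening in each cell cannot be told apart.

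The median percentile over the shared regions was also taken for each locus. At Erg it was 45.1 and 46.1 in CBE_1, 38.5 and 35.4 in CBE_2, and 35.9 and 28.9 in WT, so CBE_2 overlapped WT (mutated minus WT 8.89 points, exact two-sided permutation p = 0.267). At Tcf3 it was 67.9 and 58.6 in CBE_1, 56.6 and 58.0 in CBE_2, and 59.1 and 56.0 in WT (2.71 points, exact permutation p = 0.667). At Foxo1 it was 52.4 and 47.0 in CBE_1, 33.9 and 35.4 in CBE_2, and 44.7 and 43.0 in WT, with the mutated lines on opposite sides of WT (-1.68 points, exact permutation p = 0.933). At Foxo1 the difference of medians is thus below 0, while the median of the regions' own differences is above it. Ranked within the whole list instead, the differences were -7.90 points at Foxo1 (exact permutation p = 0.133), -3.53 at Tcf3 (exact permutation p = 0.133) and -1.71 at Erg (exact permutation p = 0.533). On that scale shared regions of the whole genome also leaned below WT, with 7.15% higher and 40.5% lower.

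**Figure D3:**
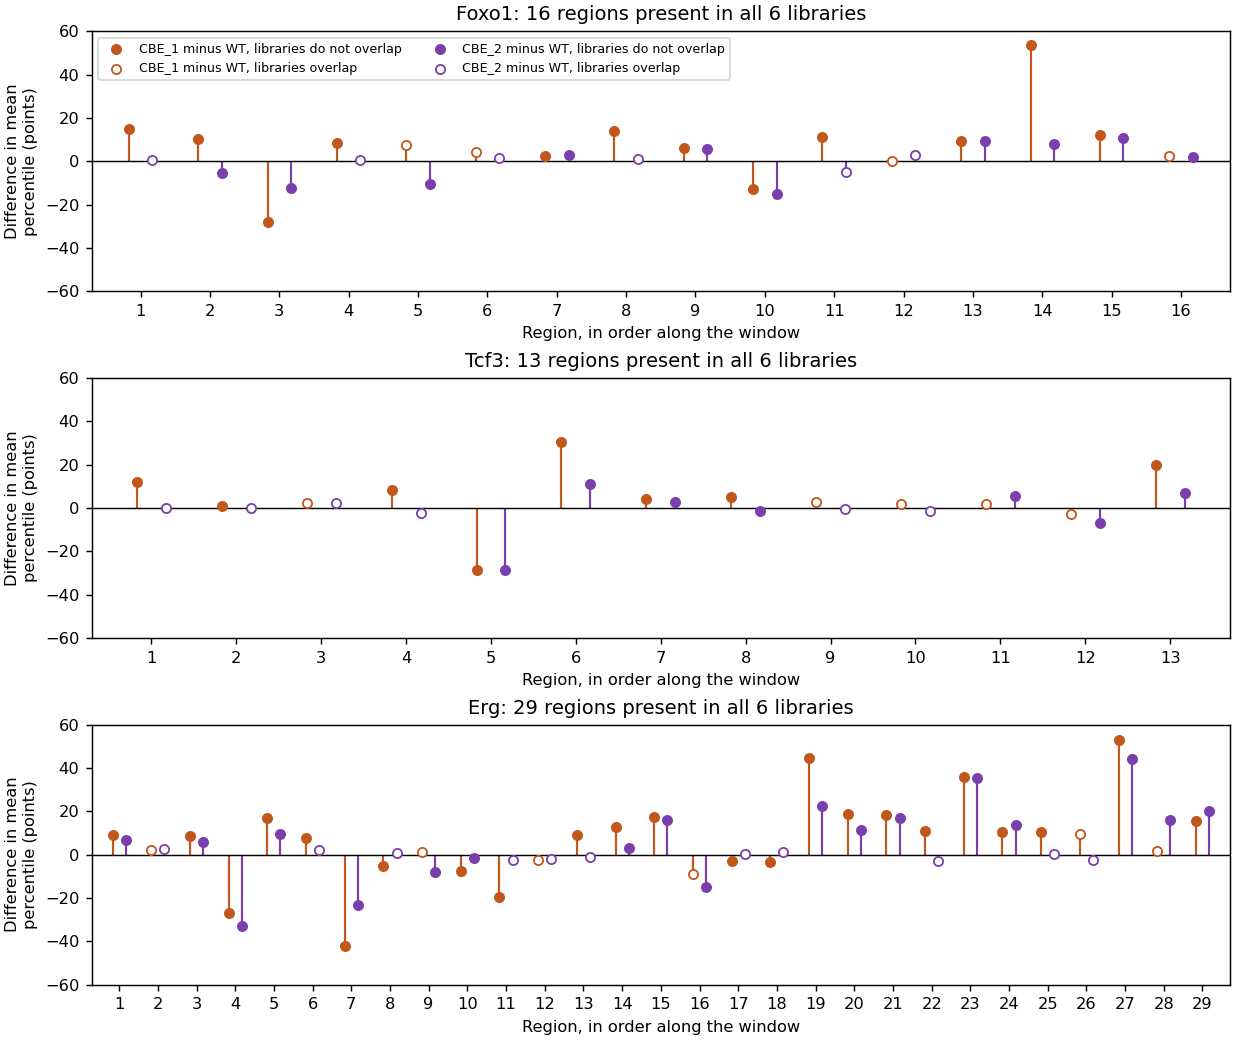
Difference in mean percentile from WT for each region present in all 6 libraries, in order along each window, for CBE_1 and CBE_2. Filled points mark regions where both libraries of the line lie on one side of both WT libraries. The highest points, both for CBE_1, are Foxo1 region 14 at 53.5 and Erg region 27 at 53.1, and CBE_2 is at 7.94 in that Foxo1 region and 44.3 in that Erg region.

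At Foxo1 the strongest region, at 52199184 to 52202465 and reaching over the edge of the window, stood at the 91.3rd and 93.7th percentile in CBE_1, 93.1 and 91.6 in CBE_2, and 89.2 and 91.4 in WT, so the groups overlapped. The widest, at 52071148 to 52074872, was covered over 3434 and 3602 bp in CBE_1, 3612 and 3677 bp in CBE_2, and 3675 and 3672 bp in WT. Its percentile was 83.7 and 78.2 in CBE_1, 79.6 and 81.3 in CBE_2, and 75.9 and 73.4 in WT, a difference of 6.03 points (exact two-sided permutation p = 0.133) that 24.3% of all shared regions reach or exceed. It thus ranked higher in the mutated lines at widths that overlapped.

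The Foxo1 region that differed most upward lies at 52194320 to 52195370. It stood at 59.7 and 55.7 in CBE_1, 11.8 and 12.5 in CBE_2, and 2.96 and 5.45 in WT. The difference was 53.5 points for CBE_1 and 7.94 points for CBE_2, or 30.7 points for the mutated libraries together. Of all shared regions 2.32% differ by as much upward. Its covered width was 960 and 1031 bp in CBE_1, 883 and 966 bp in CBE_2, and 675 and 297 bp in WT, which made it the only shared Foxo1 region wider in all 4 mutated libraries (7.36% of all shared regions are). Its neighbour at 52195850 to 52197945 stood at 60.3 and 59.5 in CBE_1, 57.1 and 60.3 in CBE_2, and 45.8 and 49.9 in WT. Those at 52146532 to 52148238 (9.53 points) and 52065293 to 52065949 (2.64 points) were also higher in all 4 mutated libraries.

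In the other direction, the Foxo1 region at 52015994 to 52016619 stood at 18.1 and 21.7 in CBE_1, 33.9 and 36.5 in CBE_2, and 50.9 and 44.5 in WT. It was narrower too, with 279 and 390 bp in CBE_1, 483 and 484 bp in CBE_2, and 611 and 618 bp in WT (28.8% of all shared regions are narrower in all 4 mutated libraries). The lines thus stood in the order CBE_1, CBE_2, WT in both measures, without overlap. A region inside the window at 52126269 to 52127334 stood at 28.2 and 31.0 in CBE_1, 21.8 and 33.1 in CBE_2, and 43.6 and 41.5 in WT, with overlapping widths. The mutated lines parted at 52001761 to 52003958, where CBE_1 had 60.3 and 57.7, CBE_2 40.6 and 45.5, and WT 45.8 and 51.1.

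The remaining shared Foxo1 regions overlapped between mutated and WT libraries. They lie at 51999738 to 52001130 (7.58 points, mutated minus WT), 52046249 to 52046835 (4.47), 52047503 to 52048170 (-1.46), 52057787 to 52058230 (3.06), 52066292 to 52067026 (7.44), 52134681 to 52136400 (3.13) and 52139350 to 52139842 (1.63). The regions specific to a line were weak. The region found only in WT, at 52078331 to 52078670, was 2.60-fold and 2.64-fold over background. The region found only in CBE_2, at 52160619 to 52160953, was 2.94-fold and 2.47-fold over background. In 4 regions of Foxo1 CBE_1 replicate 1, the shortest list, was the only library without a peak. The longest stretch without a peak in any list ran for 33.4 kb from 52160954 to 52194319.

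At Tcf3 the strongest region, at 79860136 to 79863576, stood at the 99.8th percentile in both CBE_1 libraries, 98.9 in both CBE_2 libraries, and 99.0 and 98.8 in WT. It is thus among the strongest regions of every library. The widest, at 79891168 to 79895213, stood at 91.5 and 91.0 in CBE_1, 89.1 and 90.4 in CBE_2, and 87.7 and 86.1 in WT, a difference of 3.55 points without overlap. Its neighbour at 79895463 to 79897385 stood at 98.6 and 99.1 in CBE_1, 91.6 and 93.3 in CBE_2, and 93.8 and 93.5 in WT, so the mutated lines lay on either side of WT. These 3 strong regions stood at the 86.1st percentile or above in every library.

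Weaker regions at Tcf3 held its largest differences in both directions. The Tcf3 region at 79881044 to 79881631 stood at 12.4 and 5.10 in CBE_1, 3.93 and 13.8 in CBE_2, and 38.6 and 36.3 in WT, a difference of -28.7 points that 2.73% of all shared regions reach downward. Its width was 223 and 225 bp in CBE_1, 386 and 344 bp in CBE_2, and 545 and 574 bp in WT. The difference from WT was -28.7 points in CBE_1 and -28.6 in CBE_2. The next region along the chromosome, at 79882159 to 79882849, had no peak in any mutated library and folds of 3.35 and 3.41 in WT, at the 36.7th and 34.9th percentile of those lists. These 2 adjacent regions were the only ones at Tcf3 that were absent or lower in all 4 mutated libraries with peaks in both WT libraries.

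Higher in the mutated lines was the Tcf3 region at 79886083 to 79887021, with 56.6 and 48.6 in CBE_1, 33.9 and 33.1 in CBE_2, and 21.6 and 23.1 in WT (20.7 points). Of all shared regions 4.97% differ by as much upward. The region spanning 79908513 to 79909525 stood at 67.9 and 57.7 in CBE_1, 50.2 and 49.2 in CBE_2, and 45.8 and 39.8 in WT (13.4 points). Both followed the order CBE_1, CBE_2, WT. CBE_1 was above CBE_2 in 9 of the 13 shared Tcf3 regions and below it in none, against 34.1% and 31.5% of all shared regions.

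Widths at Tcf3 were narrower in all 4 mutated libraries in 6 of 13 shared regions (46.2%, against 28.8% of all shared regions) and wider in none (against 7.36%). The other shared regions overlapped in percentile and lie at 79848533 to 79851776 (6.09 points), 79866023 to 79866618 (2.29), 79868344 to 79871847 (2.97), 79897463 to 79899574 (1.30), 79904987 to 79905350 (0.231), 79905547 to 79906629 (3.68) and 79906794 to 79907876 (-4.82). The CBE_1-only region at 79910178 to 79910437 had folds of 2.87 and 2.92. On chromosome 10 as a whole, 14.8% of shared regions were higher and 32.4% lower, beside 23.1% and 7.69% at Tcf3, or 3 and 1 of 13 regions. Chromosome 3 had 19.4% higher and 17.3% lower, beside 31.2% and 12.5% at Foxo1. Chromosome 16 had 17.7% and 19.5%, beside 41.4% and 10.3% at Erg.

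**Figure D4:**
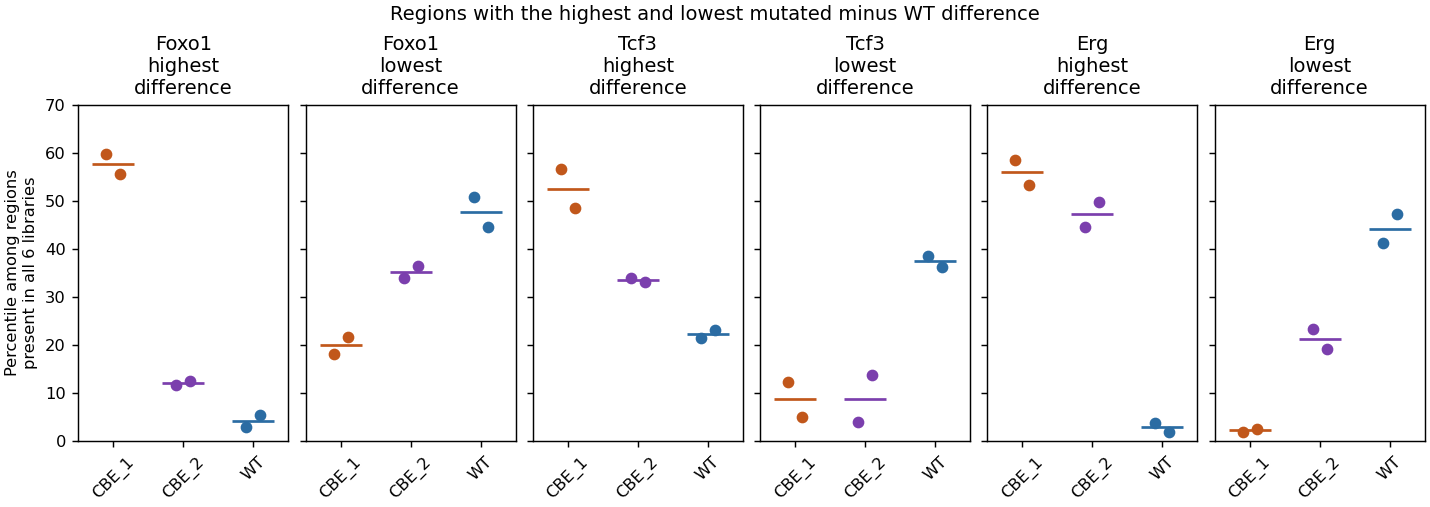
Percentile among the regions present in all 6 libraries, for the region with the highest and the lowest mutated minus WT difference at each locus. Points are libraries and lines are means of 2. In all 6 panels the mutated libraries lie on one side of both WT libraries, from a difference of 48.7 points to one of -32.5 points, both at Erg.

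By the mean over the 4 mutated libraries, Erg held the largest differences of the 3 loci in both directions. For CBE_1 alone the largest upward difference was the Foxo1 region above, at 53.5 points, against 53.1 at Erg. The region spanning 95806430 to 95807945 stood at 58.6 and 53.4 in CBE_1, 44.5 and 49.9 in CBE_2, and 3.75 and 2.01 in WT, a difference of 48.7 points. Like the other extremes named for each locus, it was picked on this difference, so its values are a description and no test. Only 288 of the 47767 shared regions (0.603%) differ by as much upward. Its deposited folds were 8.14 and 7.19 in CBE_1, 7.11 and 7.73 in CBE_2, and 3.25 and 2.97 in WT. It was covered over 1108 and 845 bp in CBE_1, 1316 and 895 bp in CBE_2, and 300 and 366 bp in WT. A weak and narrow region in WT was thus a mid-rank region in both mutated lines.

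A stretch of 27.3 kb at Erg, from 95655388 to 95682705 and chosen after its values were seen, held 6 shared regions. Of these, 5 were higher (20.3% of all shared regions are) and 4 wider (7.36% are) in all mutated libraries. Because the stretch was chosen on these values, its counts are a description and no test. The region spanning 95672020 to 95673199 stood at 48.5 and 46.1 in CBE_1, 50.2 and 43.9 in CBE_2, and 10.8 and 12.1 in WT (35.7 points). That at 95655388 to 95656555 stood at 51.7 and 56.2 in CBE_1, 37.3 and 25.8 in CBE_2, and 7.45 and 10.9 in WT (33.5 points). At 95672020 the difference from WT was 35.9 points in CBE_1 and 35.6 in CBE_2, and at 95655388 it was 44.7 points in CBE_1 and 22.4 in CBE_2.

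The widest Erg region, at 95674496 to 95682705, was covered over 7736 and 8182 bp in CBE_1, 8098 and 7879 bp in CBE_2, and 6720 and 6897 bp in WT. It was called as 4 and 1 peaks in CBE_1, 2 and 2 in CBE_2, and 6 and 6 in WT. Its percentile was 78.3 and 74.5 in CBE_1, 81.0 and 79.0 in CBE_2, and 67.3 and 65.1 in WT. Each mutated library thus covered more of it, with fewer separate peaks, than either WT library. Also higher within the stretch were 95667738 to 95668875 (17.5 points) and 95657423 to 95658011 (15.0 points), while 95669626 to 95671868 overlapped (4.05 points).

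Outside this stretch, 5 Erg regions that include the strongest were not higher in the mutated lines. The strongest, at 95625895 to 95628095, stood at 89.0 and 92.2 in CBE_1, 96.4 and 97.3 in CBE_2, and 98.0 and 98.7 in WT, a difference of -4.62 points. The regions at 95648370 to 95653013 and 95653614 to 95655099 differed by -1.43 and -1.01 points with overlapping libraries. So did 95622836 to 95624754 (-2.26 points). The region from 95630418 to 95632086 stood at 28.2 and 50.1 in CBE_1, 54.9 and 58.0 in CBE_2, and 60.4 and 57.4 in WT, with CBE_2 overlapping WT. In all 5 of these, chosen after their values were seen, CBE_1 lay below WT and below CBE_2. Of all shared regions 33.6% have CBE_1 below WT and 31.5% have it below CBE_2. The 5 do not stand for the locus. Over the 29 shared Erg regions CBE_1 was above WT in 16 and below it in 7. It was above CBE_2 in 10 and below it in 9.

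Lower in the mutated lines were 2 further Erg regions. The one at 95606189 to 95607303 stood at 2.00 and 2.51 in CBE_1, 23.3 and 19.2 in CBE_2, and 41.2 and 47.3 in WT (-32.5 points), with widths of 206 and 315 bp in CBE_1, 436 and 374 bp in CBE_2, and 1064 and 1115 bp in WT. The one at 95568204 to 95569729 stood at 9.30 and 13.1 in CBE_1, 7.53 and 2.77 in CBE_2, and 42.0 and 34.4 in WT (-30.0 points), with widths of 628 and 677 bp in CBE_1, 596 and 774 bp in CBE_2, and 1455 and 1328 bp in WT. Of all shared regions 1.99% and 2.41% differ by as much downward. Mid-rank regions in WT thus ranked lower and were narrower in the mutated lines at these positions.

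The remaining Erg regions called higher were 95562627 to 95564252 (7.97 points), 95566390 to 95568059 (7.11), 95571631 to 95572524 (13.3), 95637566 to 95638500 (7.91), 95640033 to 95640634 (16.7) and 95836009 to 95837731 (17.9). The region at 95566390 to 95568059 was higher in percentile but narrower, with a mean of 1134 bp in the mutated libraries and 1612 bp in WT. Those with overlapping libraries lie at 95564333 to 95565184 (2.44), 95588632 to 95588988 (5.05), 95624869 to 95625677 (-3.22), 95632959 to 95633834 (-2.25), 95634478 to 95635061 (3.91), 95642811 to 95643950 (-11.9), 95683443 to 95684130 (5.49), 95791817 to 95792660 (3.51) and 95826940 to 95827435 (8.90). No Erg region had a line pattern of presence. The 4 Erg regions found in all 4 mutated libraries and 1 WT library were missing from WT replicate 2. A stretch of 52.4 kb from 95688501 to 95740947 had no peak in any list.

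Over the 3 loci, 8 of 58 shared regions were wider in all 4 mutated libraries (13.8%, against 7.36% of all shared regions) and 15 narrower (25.9%, against 28.8%). Erg held 7 of the wider and 8 of the narrower ones. With CBE_1 alone against WT, 16 regions were wider (27.6%, against 11% of all shared regions) and 19 narrower (32.8%, against 52.6%). With CBE_2 alone, 14 were wider (24.1%, against 22.3%) and 20 narrower (34.5%, against 36.8%). The median width of the shared Foxo1 regions was 980 and 898 bp in CBE_1, 825 and 948 bp in CBE_2, and 777 and 753 bp in WT (exact two-sided permutation p = 0.133). Summits of the strongest peak lay within 100 bp in all 6 libraries in 6 of 16 Foxo1, 5 of 13 Tcf3 and 9 of 29 Erg regions, against 50.4% of all shared regions. The median gap between duplicates over the shared regions of a locus was 3.66 to 6.11 points in CBE_1, 1.67 to 3.47 in CBE_2 and 1.59 to 3.94 in WT. Over all shared regions it was 3.93, 2.98 and 2.75 points. The median absolute difference, mutated minus WT, was 5.25 points at Foxo1, 3.55 at Tcf3 and 7.97 at Erg, beside 5.80 over all shared regions. At Tcf3 it was thus smaller than the CBE_1 gap of 6.11 points.

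The network partners Ebf1 and Pax5 were read in the same way. Ebf1 encodes a pioneer factor of the B lineage and Pax5 the factor that holds B cell commitment. At Ebf1, 9 of 17 shared regions were higher in all 4 mutated libraries and none was lower (median 8.71 points), against 20.3% and 20.1% of all shared regions (median 0.199 points). At Pax5, 1 of 10 was higher, a share of 10% that is below that of all shared regions, and none was lower (median 0.472 points).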

How the data were processed

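The samples are 6 ATAC-seq libraries of 3 pro-B lines, numbered in accession order. Per the submitters' processing notes, Trimmomatic, Bowtie2, SAMtools, Picard and the build mm9 were used; for the peak caller, its settings and any transposase shift, nothing is stated there. The authors deposited 1 peak list per library. Each deposited peak has a score, a fold over background (a ratio), a −log10 p-value and a −log10 q-value, all of them the authors' own values, used here for ranks and filters inside 1 list at a time. Scores are the −log10 q-value times 10 with the decimals dropped. The reads were not analysed here, so depth is unknown.

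Peaks were merged at 1 bp overlap over the whole genome (Python 3.11.15, pandas 2.3.3, numpy 2.4.6); a region reaching over a window edge was kept whole. Width is the bases under a library's peaks. Coordinates are 1-based. Library values were compared by exact two-sided permutation tests, whose smallest p is 0.133 for 4 against 2 libraries and 0.333 for 2 against 2. Merging and calls were tested on simulated lists. Named are all regions present in all 6 libraries, those with a line pattern and the widest of each locus, with values per library for the strongest and the extremes. The members, windows and lists were chosen with earlier results of these data known. Alternatives were a 100 bp merge overlap, the better 50% of each list, lists of the same length, 3 other ways to rank, ranks within the chromosome and leaving out each library. Of the B lineage windows used to check the label, 1 is not reported here.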

Additional observations from a re-analysis of the deposited data

Results flagged for a closer look

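In 3 results CBE_1 lay above WT and CBE_2 below it, without any overlap of libraries. The difference between the mutated lines was tested for the first only, and was not tested for the 2 single regions. The median percentile of the shared Foxo1 regions was 5.87 points above WT in CBE_1 and -9.23 points from it in CBE_2. CBE_1 minus CBE_2 was 15.1 points (exact two-sided permutation p = 0.333, the smallest that 2 against 2 libraries allow). Leaving out each library gave 0.108 to 8.51 points for CBE_1 and -9.85 to -2.70 for CBE_2. The CBE_1 value was 0.108 when WT replicate 1 was left out and 0.305 when WT replicate 2 was, and the CBE_2 value was -2.70 when CBE_1 replicate 1 was. The Foxo1 region at 52001761 to 52003958 stood 10.5 points above WT in CBE_1 and -5.42 points from it in CBE_2. The Tcf3 region at 79895463 to 79897385 stood 5.21 points above WT in CBE_1 and -1.16 points from it in CBE_2. Of the 58 shared regions, the 2 named here are the ones that did so. How many of all shared regions did so was not counted, so 2 of 58 cannot be called many or few.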

How the results depend on the processing

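Of 274 recomputed values, 240 kept their direction or, for counts, stayed within 1.5 times. That tally includes values that could hardly change, so it overstates how stable the results are. For the shares of list bases and the 6 regions with the highest and lowest differences, mutated and WT values did not overlap. Leaving out a library could thus not reverse a share difference, and could hardly reverse that of a region. The tally also counts the ranks by the −log10 p-value, which repeat the main values. The difference in share of list bases kept its direction at each locus in all settings run, but at Tcf3 the libraries overlapped with lists of the same length (0.00360 percentage points), and the value was 0.00293 when CBE_1 replicate 1 was left out, against 0.00514. The 6 regions with the highest and lowest differences kept their direction wherever they could be computed. With the better 50% of each list only the Tcf3 region from 79886083 could be, and with lists of the same length the Foxo1 region from 52194320 and the Erg region from 95806430 could not. Ranks by the −log10 p-value gave the same medians and counts as ranks by fold, to every digit. That setting is thus no separate check. With the better 50% of each list, shared regions numbered 9 at Foxo1, 9 at Tcf3 and 13 at Erg. Of these, 13 were higher and 1 lower in the mutated lines, while 20.1% of all shared regions were higher and 20.1% lower. A line pattern was then found in 11 regions. With lists of the same length 14 regions had a line pattern. The share of all regions with such a pattern was not computed in either setting. Within the whole list 6 regions were higher and 15 lower, against 7.15% and 40.5% of all shared regions. The median differences there were -3.53 points at Tcf3 and -1.71 at Erg for the mutated lines, -6.58, -4.21 and -2.66 for CBE_1 at Foxo1, Tcf3 and Erg, and -0.760 for CBE_2 at Erg. The Foxo1 median difference of -1.68 points was -7.90 within the whole list, -3.05 within the chromosome, 7.60 with the better 50%, 4.08 with lists of the same length and 13.5 when ranked by width, and between -4.30 and 1.10 when leaving out each library. It was above 0 when CBE_1 replicate 1 (0.240), CBE_2 replicate 1 (1.10) or CBE_2 replicate 2 (0.607) was left out. For CBE_2 it was 0.0403 with the better 50% and 9.84 by width. The CBE_2 difference at Tcf3 of -0.278 points was 3.29 with a merge overlap of 100 bp, 0.317 by width, 2.34 within the chromosome, 1.21 without WT replicate 1, 3.31 when CBE_1 replicate 2 was left out and 3.38 when CBE_2 replicate 1 was, and leaving out each library gave -1.93 to 3.38. The same gave 0.373 to 8.67 points for the mutated lines at Tcf3 and 8.003 to 13.5 at Erg. The cause of these changes was not tested.

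Leaving out each library gave 12 to 19 regions with a line pattern (16 and 17 when a CBE_1 library was left out, 18 and 19 for CBE_2, and 16 and 12 for WT). A line pattern then asks for fewer libraries with a peak, or for fewer without one. The share of all regions with a line pattern was not computed in these settings. Higher regions then numbered 22 to 30 and lower ones 6 to 9, while 22.7% to 26.7% of all shared regions were higher and 22.6% to 26.4% lower. No paired analysis was possible because the labels give the duplicates no numbers that pair libraries across lines. With 2 libraries per line the exact permutation tests could not pass 0.05, and the unknown depth limits what the absence of a weak peak shows.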
